A study of Mus musculus with 6 samples.

Results

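The genes described here are the receptors for corticosteroid hormones and a set of genes that glucocorticoids are known to induce. There are 10 of them: the glucocorticoid receptor gene Nr3c1, the mineralocorticoid receptor gene Nr3c2, and the induced genes Fkbp5, Tsc22d3, Sgk1, Ddit4, Pdk4, Cdkn1a, Mt1 and Mt2. They were found as the probe sets whose platform annotation gives exactly 1 gene symbol, that of a member, which gave 22 of the 45037 probe sets that are not controls. Probe sets averaging under 4 on the log2 scale over the 6 arrays are called dim. By this floor 14 of the 22 were measured and 8 were dim, and each of the 10 genes had at least 1 measured probe set.

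The study compared stellate ganglia, the sympathetic ganglia that supply the heart, of mice 8 weeks after transverse aortic constriction (TAC) with those of sham-operated mice. TAC narrows the aorta and loads the left ventricle with pressure. All animals were male C57/Bl6 mice with no genetic change given in the labels, and there were 3 TAC arrays and 3 sham arrays. Both ganglia of 1 animal went on 1 array, so the unit is the animal and neurons, glia and vessels were measured together. The arrays are called TAC A, B and C and sham A, B and C after their titles.

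Glucocorticoids are steroid hormones of the adrenal cortex, corticosterone in the mouse, whose secretion follows the time of day and increases with stress. In a cell without hormone the glucocorticoid receptor is held in the cytosol by heat shock chaperones and immunophilins, and with hormone it moves to the nucleus, binds glucocorticoid response elements and changes transcription. The products of Fkbp5 and Tsc22d3 are among the most widely used readouts of receptor activity, and that of Fkbp5 in turn lowers the receptor's affinity for the hormone. Sympathetic ganglia lie close to fat and muscle, which carry the same receptors. Most of the members also answer to other signals, such as metals, p53, fasting or lack of oxygen.

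Promoter sequences were available from RefSeq (GRCm38.p6) for 9 of the 10 genes in 17 windows of 250 bases before a transcription start, and not for Nr3c1. A full glucocorticoid response element, searched on both strands, was taken as AGAACA, any 3 bases and TGTTC. They were present in 1 of the 17 windows, at 1 of the 6 annotated starts of Sgk1, and in 0.0304% of all 32851 windows. The core letters of the metal response element, TGCACNC or TGCGCNC, were present in 4 of the 17 windows and in 21.4% of all windows. The 4 were those of Mt1, Mt2, Ddit4 and Nr3c2. The windows shown are that of Sgk1 for its glucocorticoid element and those of Mt1 and Mt2 because both genes stood out on 1 array below. Cdkn1a stood out more on that array, and none of its windows held a match to either element. Capitals mark the matches, on either strand. Windows of this length leave out distal and intronic elements, where many glucocorticoid-regulated genes are controlled.
Sgk1: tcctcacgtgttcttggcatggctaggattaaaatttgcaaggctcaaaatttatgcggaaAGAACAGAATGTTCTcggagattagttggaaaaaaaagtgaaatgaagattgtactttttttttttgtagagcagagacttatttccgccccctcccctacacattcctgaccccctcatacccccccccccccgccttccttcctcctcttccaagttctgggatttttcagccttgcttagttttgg
Mt1: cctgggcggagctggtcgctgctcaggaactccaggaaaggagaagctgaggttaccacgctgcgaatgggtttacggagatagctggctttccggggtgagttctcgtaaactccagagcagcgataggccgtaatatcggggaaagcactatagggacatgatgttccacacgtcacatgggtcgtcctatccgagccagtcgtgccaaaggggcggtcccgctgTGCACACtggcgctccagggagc
Mt2: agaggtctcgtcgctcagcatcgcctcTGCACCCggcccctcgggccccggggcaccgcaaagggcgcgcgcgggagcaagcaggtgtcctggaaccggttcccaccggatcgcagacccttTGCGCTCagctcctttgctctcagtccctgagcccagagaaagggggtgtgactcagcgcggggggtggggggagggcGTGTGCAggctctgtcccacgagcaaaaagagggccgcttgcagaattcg

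The Sgk1 window lies at chr10:21993640-21993889 on the plus strand. Its capitals are a single palindromic stretch that matches on both strands and begins 189 bases before that start. The Mt1 window lies at chr8:94178839-94179088 and the Mt2 window at chr8:94172368-94172617, both on the plus strand, and the genes are next to each other in the RefSeq annotation. The Mt2 window held 3 metal response cores and the Mt1 window 1. At least 3 matches occurred in 1.26% of all windows. A match of letters does not show that a factor binds there.

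The tissue markers were as labelled. The noradrenergic markers Th, Dbh and Slc6a2 were bright on every array, and the summed intensity of 9 sympathetic neuron markers was 93700 to 94700 on TAC arrays and 88600 to 99100 on sham arrays. One array stood apart. TAC B had the lowest mean correlation with the others, 0.984 against 0.987 to 0.990. It was the highest of the 6 arrays by at least 1 log2 unit, a factor of 2, for 84 probe sets, against 0 to 13 on each of the other arrays. Of these 84 probe sets 3 were members', those of Cdkn1a, Mt1 and Mt2, and differences of the members are therefore given with and without TAC B. Among the sham arrays, sham C had the highest sums of skeletal muscle, brown fat and white fat markers of all 6 arrays, at 1450, 1570 and 6880. In the limma fit of TAC against sham, 0 of the 17550 measured probe sets (0%) had an adjusted p under 0.05, and 9.08% had an unadjusted p under 0.05. Without TAC B these shares were 0.0057%, a single probe set that was not a member's, and 7.09%, and 2 of the 14 member probe sets had an unadjusted p under 0.05.

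None of the 14 measured member probe sets was called between TAC and sham. The limma adjusted p values ran from 0.545 to 0.997, and 2 of 14 had an unadjusted p under 0.05, against 9.08% of all probe sets. The groups did not overlap in 3 of 14, all higher after TAC, where 9.02% of all probe sets were higher and 17.9% were separated in either direction. By the brightest probe set of each gene, 8 of 10 averaged higher in TAC ganglia and the median difference was 0.37 on the log2 scale, against 56.1% of all probe sets with a higher mean and a median of 0.03. Without TAC B the median of the 10 was -0.02, with 4 higher and 6 lower, beside 0.02 for all probe sets. The smallest p that an exact permutation test of a single gene could reach in this design is 0.1.

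**Figure D1:**
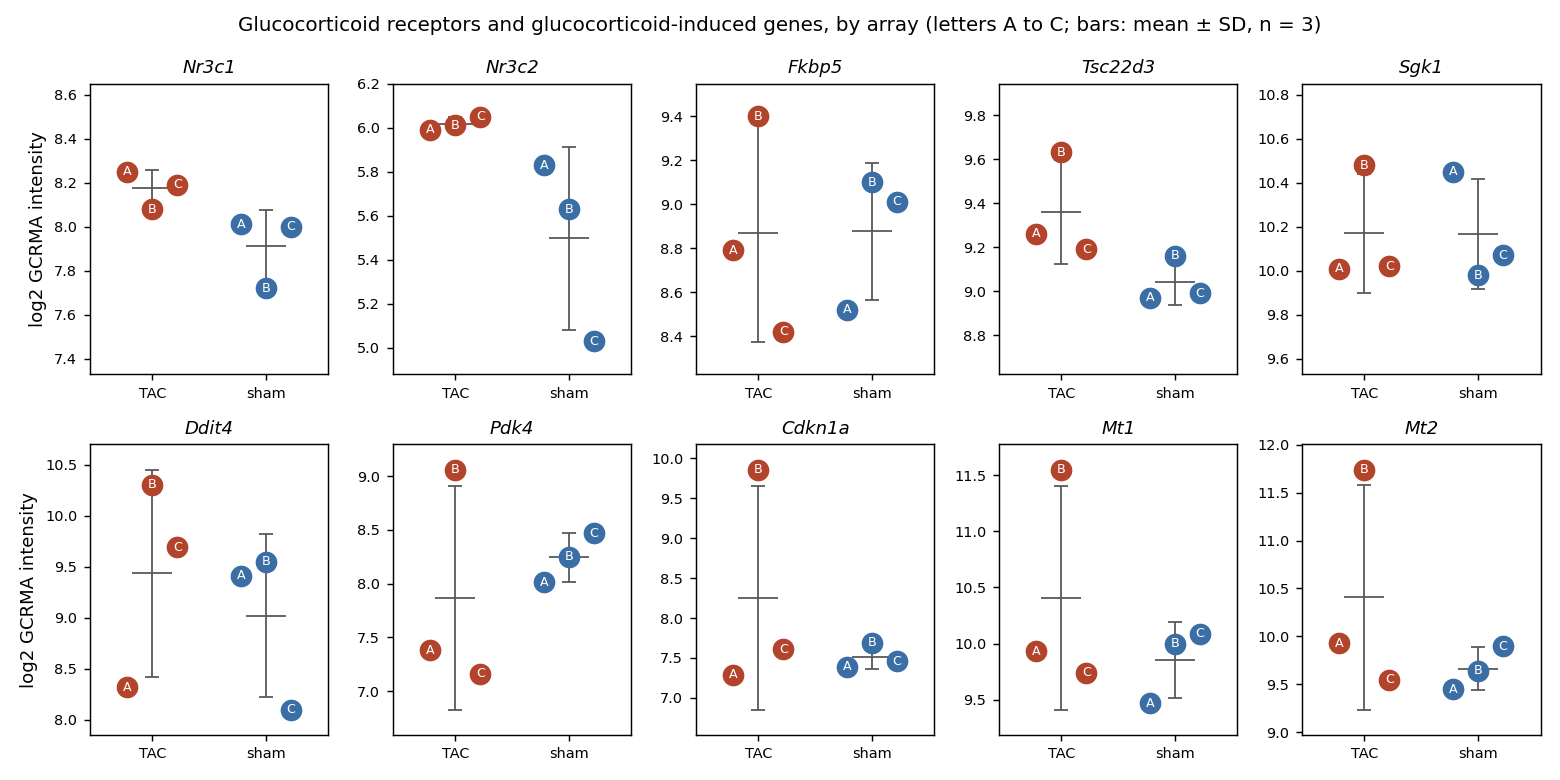
Log2 GCRMA intensity (vertical axes, each panel with its own range) of the brightest probe set of each of the 10 genes, on the 3 TAC arrays (left, red) and the 3 sham arrays (right, blue), with the letter of each array. Bars give the mean and SD (n = 3). The groups do not overlap for Nr3c1, Nr3c2 and Tsc22d3, and TAC B is the highest array for Fkbp5, Tsc22d3, Sgk1, Ddit4, Pdk4, Cdkn1a, Mt1 and Mt2.

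The receptors themselves were the members with the smallest p. Nr3c2, whose product binds mineralocorticoids and, with higher affinity than the glucocorticoid receptor, corticosterone, measured 5.99, 6.01 and 6.05 on TAC A, B and C, against 5.83, 5.63 and 5.03 on sham A, B and C. Every TAC array lay above every sham array, and the TAC arrays lay within 0.07 of each other while the sham arrays spanned 0.80. The means were 6.02 ± 0.03 in TAC and 5.50 ± 0.41 in sham ganglia (SD, n = 3 each). The log2 difference was 0.52 (SE 0.20), or 1.44-fold, with limma adjusted p = 0.545 (unadjusted p = 0.0382). The lowest sham value was that of sham C, the array richest in muscle and fat markers, and without sham C the difference was 0.29. It was 0.38 with a fat marker score, the mean log2 value of the measured fat markers on each array, as a covariate, 0.42 with a muscle marker score and 0.52 without TAC B. This was the only probe set of Nr3c2, with a mean of 5.76.

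Nr3c1 had 6 probe sets, of which 3 were measured, and they disagreed. The brightest measured 8.25, 8.08 and 8.19 on TAC A, B and C, against 8.01, 7.72 and 8.00 on sham A, B and C. The groups did not overlap, with a log2 difference of 0.26 (SE 0.11), or 1.2-fold, and limma adjusted p = 0.547 (unadjusted p = 0.0473), and 0.31 (SE 0.12) without TAC B. The second in brightness measured 8.02, 7.86 and 7.79 on TAC arrays, against 7.86, 7.89 and 7.71 on sham arrays. Here the groups overlapped, with a difference of 0.07 (SE 0.10, limma adjusted p = 0.811), and 0.08 without TAC B. The third, an _s_at set, whose suffix marks probes that can match more than 1 transcript, measured 7.27, 7.12 and 7.21 on TAC arrays, against 8.00, 6.78 and 7.36 on sham arrays. It was 0.18 lower in the TAC mean (a difference of -0.18, SE 0.29, and -0.14 without TAC B), inside the wide sham range. The 3 dim sets had means of 2.30 to 3.66, where GCRMA compresses differences. The array on which most induced genes were high, TAC B, had the lowest TAC value of both the brightest and the _s_at set.

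Of the chaperones, cochaperones and immunophilins of the receptor, 7 of a list of 10 genes were on the array with 1 symbol, and all 7 were measured. Limma called 0 higher and 0 lower. All 7 averaged lower in TAC ganglia (median -0.22), and 4 did not overlap between groups, against 8.85% of all probe sets that were separated with TAC lower. Fkbp4, the immunophilin that competes with the Fkbp5 product in the receptor complex, measured 9.70, 9.57 and 9.49 on TAC arrays, against 9.80, 9.81 and 9.82 on sham arrays. Each TAC value was lower than each sham value, by 0.22 in the mean (a difference of -0.22, SE 0.08, limma adjusted p = 0.542), and -0.21 without TAC B. The other members with the smallest p were Stip1, which links Hsp70 to Hsp90, at -0.31, the Hsp40 gene Dnajb1 at -0.37 and the cochaperone Bag1 at -0.11. Without TAC B these were -0.23, -0.36 and -0.10. The most abundant chaperones of the complex, Hspa8 and Hsp90aa1, were at -0.03 and -0.02. This list was chosen with the direction of heat shock genes on these arrays known, so that direction is no independent evidence. Without TAC B the median of the list was -0.10.

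Among coregulators 8 of 10 listed genes were measured, with 0 called, 5 higher and 3 lower, and a median of 0.06. Hdac3, a deacetylase of corepressor complexes, measured 7.09, 7.44 and 7.37 on TAC arrays, against 6.92, 6.66 and 6.81 on sham arrays. Ncoa1, a p160 coactivator of steroid receptors, measured 8.39, 8.39 and 8.51 on TAC arrays, against 8.18, 8.08 and 8.20 on sham arrays. Both genes were separated between groups, at 0.51 (SE 0.12) and 0.28 (SE 0.08), and neither passed (limma adjusted p = 0.512 and 0.516). They were named for the smallest p, and they were the 2 of 8 separated, where 9.02% of all probe sets were separated with TAC higher. Without TAC B they were 0.44 and 0.30. The enzymes that set the hormone level inside a cell showed no such separation. Hsd11b1, which regenerates active corticosterone, measured 5.81, 6.55 and 5.66 on TAC arrays, against 5.90, 5.81 and 6.09 on sham arrays, and so was highest on TAC B. Hsd11b2, which inactivates corticosterone and protects the mineralocorticoid receptor from it in the kidney, was dim on every array, at 2.62 to 2.83.

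Of the immediate readouts of receptor activity, Tsc22d3 was separated between groups and Fkbp5 was not. Tsc22d3, which encodes the glucocorticoid-induced leucine zipper, measured 9.26, 9.63 and 9.19 on TAC A, B and C, against 8.97, 9.16 and 8.99 on sham A, B and C. TAC B was highest, and TAC C exceeded the highest sham array only slightly. The difference was 0.32 (SE 0.14), or 1.25-fold, with limma adjusted p = 0.549, and 0.18 (SE 0.09) without TAC B. A second set measured 8.18, 8.95 and 8.15 on TAC arrays, against 7.68, 8.31 and 8.17 on sham arrays. It overlapped between groups and was again highest on TAC B, with a difference of 0.37, and 0.11 without TAC B. The third lay just above the floor at 4.06 to 4.31, and the fourth was dim.

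Fkbp5 encodes the immunophilin that feeds back on the receptor. Its brightest set measured 8.79, 9.40 and 8.42 on TAC A, B and C, against 8.52, 9.10 and 9.01 on sham A, B and C. The highest and the lowest of the 6 arrays were both TAC arrays, and the group means were 8.87 ± 0.49 in TAC and 8.88 ± 0.31 in sham ganglia (SD, n = 3 each). The difference was 0.00 (SE 0.28, limma adjusted p = 0.997). Without TAC B it was -0.27 (SE 0.22). A second set of Fkbp5, under the floor in its mean, was at 4.36 on TAC B, against 3.41 to 3.86 on the other arrays, the same order at the top. The probe sets of other genes most like Fkbp5 over the 6 arrays were those of Acadvl (Pearson r = 0.990), Unc119b (0.984), Wars (0.982), Ano10 (0.978) and Erap1 (0.977). These sets varied less than Fkbp5, which ran from 8.42 to 9.40. Wars ran from 5.36 to 5.45, Erap1, near the floor, from 4.02 to 4.21, and Acadvl from 9.59 to 9.87. With 6 arrays and 17550 probe sets such correlations are a description.

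Sgk1, a kinase that promotes sodium transport and cell survival and carries the glucocorticoid element shown above, measured 10.01, 10.48 and 10.02 on TAC A, B and C, against 10.45, 9.98 and 10.07 on sham A, B and C. In each group 1 array was high, TAC B and sham A, and the other arrays lay between 9.98 and 10.07. The difference was 0.00 (SE 0.18, limma adjusted p = 0.995), and -0.15 (SE 0.16) without TAC B. Its range over the arrays, 0.49, was near the median range of all probe sets, 0.44.

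Ddit4, whose product restrains the growth kinase complex mTORC1 and which is also induced by lack of oxygen and by energy stress, had the widest sham range of the members, 1.45, and a TAC range of 1.98. It measured 8.32, 10.30 and 9.69 on TAC A, B and C, against 9.41, 9.55 and 8.10 on sham A, B and C. TAC A and sham C were low and the other arrays were more than 1 log2 unit higher, so the spread within each group exceeded the difference of 0.41 (SE 0.59, limma adjusted p = 0.822). Without TAC B the difference was -0.02 (SE 0.60), and without sham C -0.04.

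Pdk4, the pyruvate dehydrogenase kinase that spares glucose during fasting, split the TAC group. It measured 7.38, 9.06 and 7.16 on TAC A, B and C, against 8.01, 8.25 and 8.47 on sham A, B and C. TAC B lay above every sham array, and TAC A and C lay below every sham array. With all arrays the difference was -0.38 (SE 0.49, limma adjusted p = 0.797). Without TAC B it was -0.98 (SE 0.16, limma unadjusted p = 0.00137), and the limma adjusted p over all probe sets was 0.660. TAC B was left out after it had been seen to stand apart, so this p is no independent evidence. With the fat marker score as a covariate the difference was -0.07. In no other measured pyruvate dehydrogenase kinase gene did TAC A and C both lie below every sham array. Pdk1, the one with the smallest p among genes of the fatty acid list, measured 6.60, 7.46 and 6.92 on TAC arrays, against 6.66, 5.70 and 6.64 on sham arrays (a difference of 0.66, SE 0.33, limma adjusted p = 0.567), and its difference was 0.42 without TAC B. Of the 12 genes on that list, of PPAR signalling and fatty acid oxidation, 8 were measured and 0 were called. Pdk4 and several other induced genes are also abundant in fat and muscle, whose markers are given below.

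The members that set TAC B apart most were Cdkn1a and the metallothioneins. Cdkn1a, the cyclin-dependent kinase inhibitor p21 and a target of p53 as well as of glucocorticoids, measured 7.29, 9.86 and 7.61 on TAC A, B and C, against 7.39, 7.69 and 7.46 on sham A, B and C. The other arrays lay within a narrow band and TAC B was 2.17 above the highest of them, or 4.50-fold. Among all 17550 probe sets this gap ranked 4. A second Cdkn1a set was at 4.97 on TAC B, against 2.12 to 2.16 on the other arrays, and was dim in its mean. The TAC minus sham difference was 0.74 (SE 0.65, limma adjusted p = 0.703), and -0.07 (SE 0.14) without TAC B.

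Mt2, a cysteine-rich protein that binds zinc and copper, measured 9.93, 11.74 and 9.55 on TAC A, B and C, against 9.45, 9.64 and 9.90 on sham A, B and C. Mt1, its close paralog, measured 9.93, 11.55 and 9.74 on TAC A, B and C, against 9.47, 10 and 10.09 on sham A, B and C. On TAC B the gap to the highest other array was 1.81, or 3.52-fold, for Mt2 and 1.45, or 2.74-fold, for Mt1, with ranks 15 and 30 of all probe sets. The other arrays overlapped between groups. The differences were 0.74 (SE 0.55) and 0.55 (SE 0.48) with all arrays, with limma adjusted p of 0.664 and 0.703, and 0.08 (SE 0.18) and -0.02 (SE 0.21) without TAC B. Mt1 was measured by an _s_at set, and the paralogs are alike in sequence, and whether their probes read each other's transcripts was not tested, so the levels of the pair are uncertain. The other Mt1 set was dim, at 2.88 to 3.14.

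The metal response list is given beside the pair, and whether a metal signal acted on Mt1 and Mt2 was not tested. Mtf1, the zinc sensor that binds the metal response element, measured 5.22 on all 3 TAC arrays, against 5.25, 5.24 and 5.34 on sham arrays. The dim Mt4 set was as flat, at 2.61 on all 3 TAC arrays, so whether the Mtf1 set read signal above background is uncertain. Mt3, the metallothionein of neurons and glia, measured 10.42, 10.15 and 10.67 on TAC A, B and C, against 10.37, 10.75 and 10.68 on sham A, B and C. TAC B was its lowest array. The zinc exporter Slc30a1, a classical Mtf1 target, measured 7.68, 7.53 and 7.55 on TAC arrays, against 7.70, 7.37 and 7.72 on sham arrays. None of the 4 measured genes of this list was highest on TAC B, and limma called 0 of them. The dim Slc39a14 was highest there, at 3.97, against 3.32 to 3.62 on the other arrays. The p53 target list gave a mixed picture beside Cdkn1a. Of its 10 measured genes 0 were called and 4 were highest on TAC B. In 1 of the 10 the groups were separated with TAC higher and in 2 with TAC lower, against 9.02% and 8.85% of all probe sets. The p53-induced gene Trp53inp1 was 9.51 on TAC B, against 8.16 to 8.74 on the other arrays, while Ccng1 had lower values on all TAC arrays, at 9.91, 9.89 and 9.82, against 10.17, 10.01 and 10.06 on sham arrays. Mdm2, the negative regulator of p53, was named after its values were seen and measured 6.42 on TAC B, against 6.09 to 6.28 on the other arrays.

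**Figure D2:**
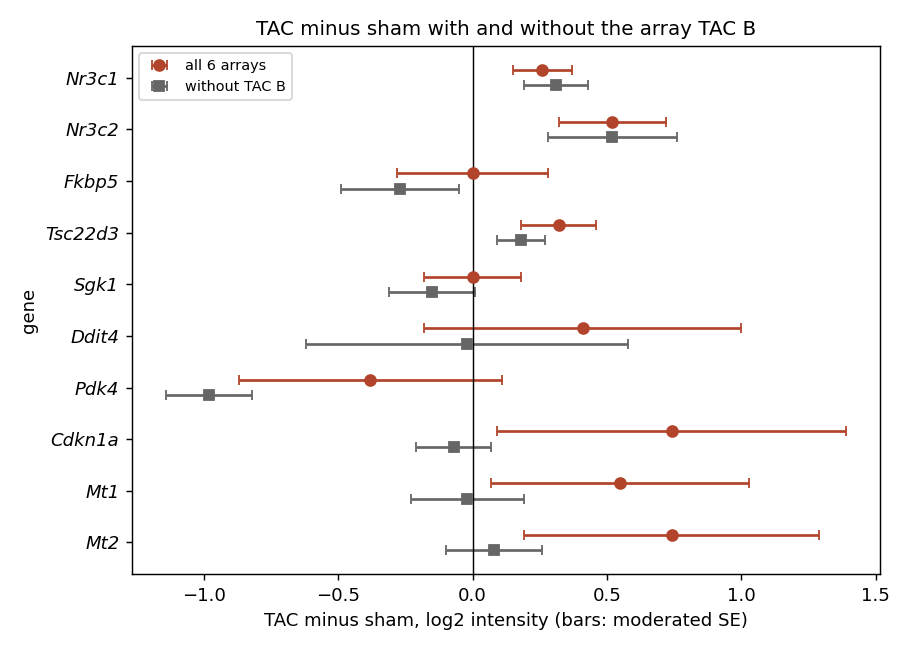
TAC minus sham difference in log2 intensity (horizontal axis) for the brightest probe set of each gene, with limma's moderated standard error, from all 6 arrays (red circles) and without TAC B (grey squares). Cdkn1a, Mt1 and Mt2 move from 0.74, 0.55 and 0.74 to -0.07, -0.02 and 0.08, Pdk4 moves from -0.38 to -0.98, and Nr3c2 stays at 0.52.

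Counted over the members, TAC B was the highest array for 8 of the 10 genes, where it was highest for 26.7% of all probe sets. It exceeded the next array by at least 0.5 log2 for 5 of the 10 (Ddit4, Pdk4, Cdkn1a, Mt1 and Mt2), where 2.87% of all probe sets did so, and by at least 1 for 3, against 0.479%. None of the other arrays did so by 0.5 for the brightest set of any of the 10 genes, where 0.285% (TAC A), 0.234% (TAC C), 0.513% (sham A), 0.422% (sham B) and 0.313% (sham C) of all probe sets did. These counts were made after the array had been seen to stand apart, and the members were chosen with earlier results known, so they describe that animal's array and are no test.

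Genes beyond the members were alike on TAC B. Of 24 further glucocorticoid-induced genes 21 were measured, and limma called 0 (17 averaged higher and 4 lower in TAC ganglia, and the median was 0.19, or -0.01 without TAC B). TAC B was highest for 16 of the 21 and exceeded the next array by at least 0.5 for 7. The 16 include Errfi1, for which TAC B and TAC C were both 8.51 at the precision printed. By the smallest p, the phosphatase gene Dusp1 measured 9.47, 10.14 and 9.97 on TAC arrays, against 9.29, 9.28 and 9.19 on sham arrays, and the clock gene Per1 measured 4.92, 5.63 and 5.10, against 4.67, 4.40 and 4.84. Both were separated between groups (differences of 0.60 and 0.58, limma adjusted p = 0.516 and 0.542). Of the 21 genes 3 were separated with TAC higher and 1 with TAC lower, against 9.02% and 8.85% of all probe sets. Genes named for a small p are apt to be separated. Without TAC B the differences were 0.46 for Dusp1 and 0.37 for Per1. Bcl6, a transcriptional repressor, was separated too, at 0.22 with and without TAC B. Rgs2, a regulator of G-protein signalling, ran the other way, at 8.73, 9.09 and 8.82 on TAC arrays, against 9.57, 9.09 and 9.30 on sham arrays, with a difference of -0.44, and -0.55 without TAC B. It was counted as separated, though TAC B and sham B differed only beyond the precision printed. Klf9, a Krüppel-like factor induced directly by both receptors, measured 11.17, 11.47 and 10.78 on TAC arrays, against 10.71, 11.21 and 10.94 on sham arrays, highest on TAC B and overlapping between groups.

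Other genes of the list were looked at after their values were seen. Txnip, an inhibitor of thioredoxin, was 10.15 on TAC B, against 8.53 to 9.03 on the other arrays. Sult1a1, a sulfotransferase, was 7.97 on TAC B, against 5.15 to 7.13 elsewhere, and Angptl4, a lipoprotein lipase inhibitor, was 8.91, against 5.92 to 7.68. Arrdc2, an arrestin-domain gene whose mean lay just under the floor, was 6.65 on TAC B, against 3.27 to 4.14 on the other arrays. Over all genes with 1 symbol, the largest gaps on TAC B were those of Setdb2 at 3.17, a histone methyltransferase gene, Rasd1 at 2.49, the Ras-related gene first found through its induction by dexamethasone, and a second set of Txnip at 2.37, followed by Cdkn1a.

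A smaller pattern ran at the low end, across both groups. TAC C and sham A were the lowest pair of the 6 arrays for 3 of the 10 members, Fkbp5, Mt1 and Mt2, and for 7 of the 21 further induced genes, where 4.27% of all probe sets had this pair lowest. The 7 were Klf9, Klf15, Zbtb16, Fam107a, Mertk, Sult1a1 and Txnip. Zbtb16, a zinc finger factor with strong glucocorticoid induction, measured 6.36, 7.18 and 2.99 on TAC A, B and C, against 4.47, 6.65 and 7 on sham A, B and C. Fam107a, an actin-binding stress-induced gene, measured 10.90, 11.52 and 9.84 on TAC arrays, against 9.29, 10.61 and 11.27 on sham arrays. Both genes thus had a low array in each group. Sgk1 did not follow the pair, since sham A was among its highest arrays. The pattern was noticed in these data and not tested, and the labels give no time of day for tissue collection.

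**Figure D3:**
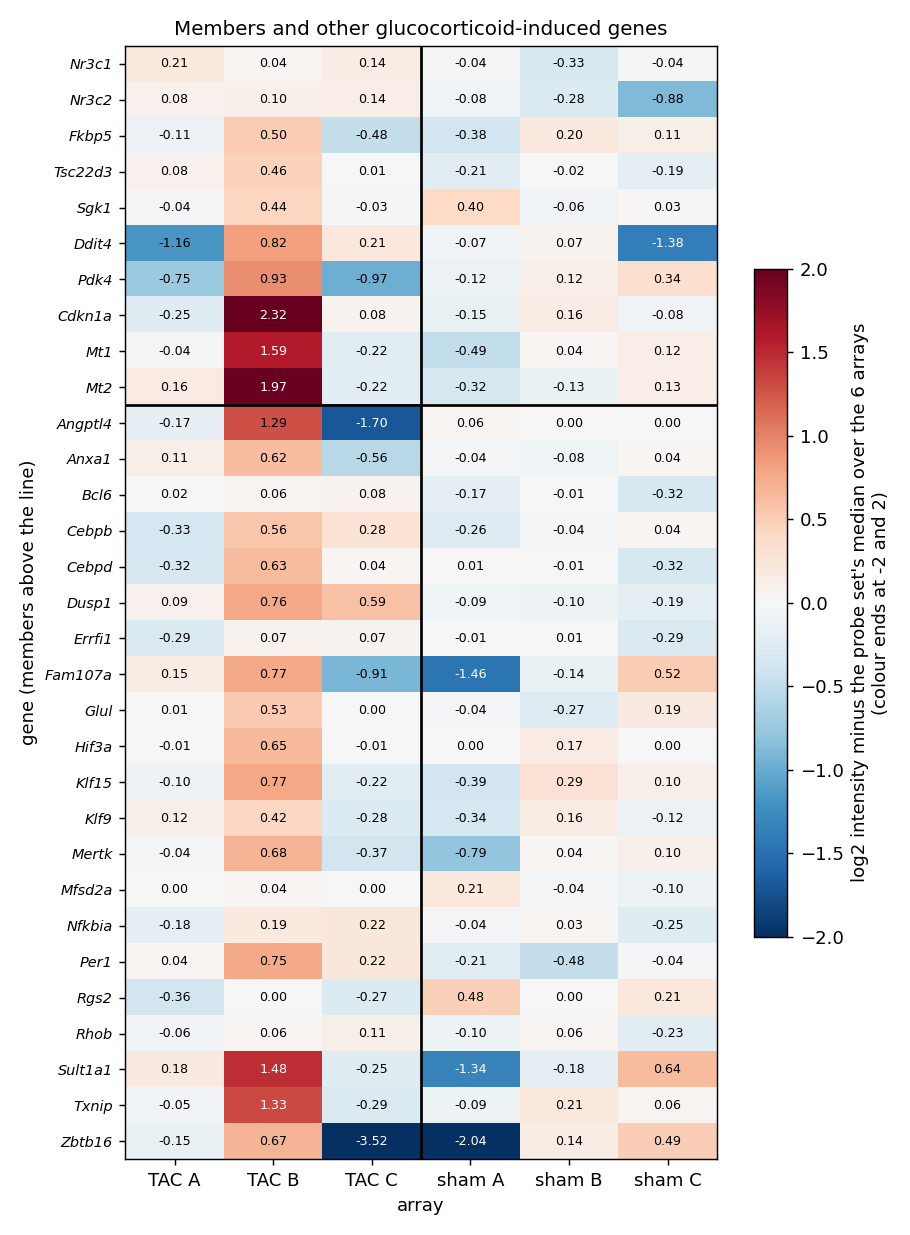
Log2 intensity minus the median over the 6 arrays of each probe set (colour and printed value), for the 10 members above the line and 21 further glucocorticoid-induced genes below it. Columns are the 3 TAC arrays and the 3 sham arrays. The TAC B column is the highest for 8 of the 10 members and 16 of the 21 others, and TAC C and sham A are the lowest pair for 3 and 7 of them.

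Markers of other cells also differed on TAC B, and in a mixed tissue fewer cells of a type and less RNA per cell cannot be told apart. The fat marker Adipoq was 8.04 on TAC B, against 5.81 and 6.24 on TAC A and C and 6.91, 6.34 and 9.01 on sham A, B and C. Ucp1, the brown fat uncoupling protein, was 6.82 on TAC B and at most 3.72 on the other TAC arrays, against 3.98, 4.64 and 8.53 on sham A, B and C. Both were higher on sham C than on TAC B. Pdk4 had the same pair of arrays on top, with TAC B highest at 9.06 and sham C next at 8.47, and Mt1 was also next highest on sham C, at 10.09. On sham C Cdkn1a was 7.46, Mt2 9.90 and Ddit4 8.10. With the fat marker score as a covariate the differences were -0.07 for Pdk4, 1.05 for Cdkn1a and 0.85 for Mt1. For Mt2 and Ddit4 they were 1.08 and 0.32. The limma adjusted p values of these 5 ran from 0.520 (Mt2) to 0.959 (Pdk4). The fat markers were themselves high on TAC B, so with 6 arrays this fit cannot tell fat from that array. The summed intensity of the 4 white fat markers found, 2 of them dim, was 1320 to 4460 on TAC arrays and 1810 to 6880 on sham arrays, and that of 5 brown fat markers, 1 of them dim, was 353 to 733 on TAC arrays and 396 to 1570 on sham arrays.

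The skeletal muscle markers, 9 genes of which 5 were dim, summed to 104 on TAC B, within 102 to 268 on TAC arrays and 82.5 to 1450 on sham arrays. Of the endothelial markers, 4 of 6 were dim, among them Pecam1, Cdh5 and Kdr, and Emcn and Cldn5 were highest on TAC B, at 5.38 and 4.96, against 4.18 to 4.74 and 4.01 to 4.32 on the other arrays. The satellite glia and Schwann cell markers, all 6 measured, summed to 13000 on TAC B, the lowest value among 13000 to 18700 on TAC and 18500 to 21000 on sham arrays. Their brightest gene, Fabp7, which weighs most in this sum, was 13.11 on TAC B, against 13.73 to 14.08 elsewhere. S100b and Foxd3 were also lowest on TAC B, at 8.34 and 4.90. Cdh19, Erbb3 and Sox10 were not, at 11.21, 9.45 and 9.49 on TAC B, against 10.71, 9.40 and 9.37 on sham A. Of the 7 fibroblast markers 5 had their lowest value of the 6 arrays on TAC B (Col1a1, Col1a2, Col3a1, Postn and Lum), with Col3a1 at 10.21 there, while Dcn was highest there at 12.49. TAC C was nearly as low for Col3a1, Lum and Postn, at 10.26, 8.02 and 9.19, against 10.21, 7.90 and 9.07 on TAC B. The sum of the 7 was lowest on TAC C, at 7890, with 8660 on TAC B and 11300 on TAC A. On sham arrays it was 9150 to 9550. The 7 macrophage markers summed to 984 to 1110 on TAC arrays and 1020 to 1230 on sham arrays. Genes of the ATF4 and mTORC1 stress list were highest on TAC B in 5 of 5 measured cases, 4 of them by at least 0.5. Among these the pro-apoptotic factor Ddit3 was 8.83, against 7.50 to 8.05 on the other arrays, and Atf4 was 11.03, against 9.99 to 10.37. All 6 adrenal cortex genes were dim, though Star was 5.2 on TAC B, against 3.09 to 3.17 on the other arrays. The part of the fat, endothelial, glial, fibroblast and stress signals in the members' values was not tested.

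**Figure D4:**
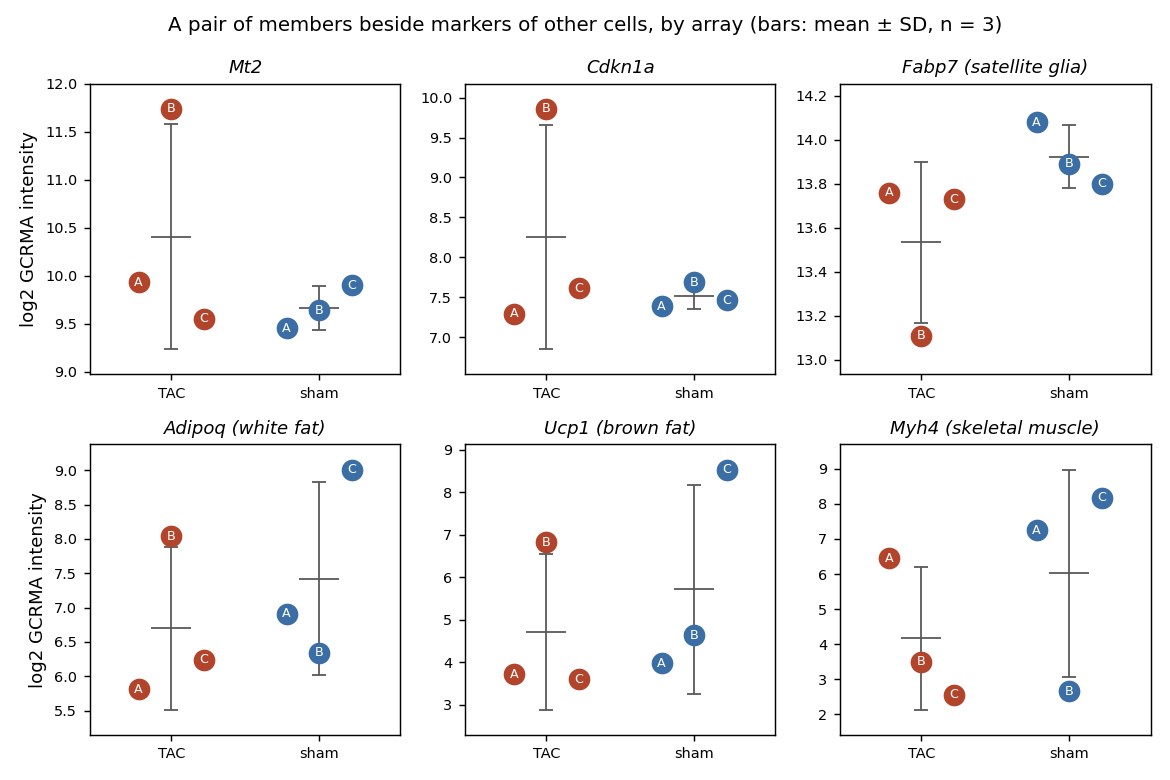
Log2 intensity (vertical axes, each panel with its own range) of Mt2 and Cdkn1a and of a marker each of satellite glia, white fat, brown fat and skeletal muscle, on the TAC arrays (left, red) and sham arrays (right, blue), with the letter of each array and the mean and SD (n = 3). Mt2 and Cdkn1a are high on TAC B alone, while Adipoq and Ucp1 are high on TAC B and higher on sham C.

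The members differed in how far they spread. Over the 6 arrays Cdkn1a spanned 2.57 on the log2 scale, Mt2 2.29, Ddit4 2.19, Mt1 2.08 and Pdk4 1.90, and at most 0.917% of all probe sets had a range as large as any of these. Among the sham arrays alone Ddit4 spanned 1.45, Nr3c2 0.80, Mt1 0.62 and Fkbp5 0.58, against a median of 0.25 for all probe sets, while Cdkn1a spanned 0.30 and Tsc22d3 0.19. Nr3c1, Sgk1 and Tsc22d3 had the narrowest ranges over all arrays, at 0.53, 0.49 and 0.66.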

How the data were processed

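RNA of both stellate ganglia of each animal was hybridised to 1 Affymetrix mouse array, 3 TAC and 3 sham. Per the submitters' processing notes the authors used GCRMA, and the deposited table holds an intensity for each probe set that has not been log-transformed. GCRMA corrects background by probe sequence, normalizes between arrays and summarises probes. Its version is not given in the sources used here. Deposited intensities were log2-transformed for this work with no pseudocount. Of 45101 probe sets 64 controls and 27487 with a mean log2 under 4 were left out, and 17550 were fitted with limma 3.58.1 (R 4.3.3; lmFit, eBayes, two-sided, Benjamini-Hochberg over all 17550, threshold 0.05), a procedure tested on simulated data. SE is limma's moderated one. A gene is represented by its brightest probe set. The number of arrays limits the precision.

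Members, lists and tests were chosen with earlier results of these data known. Named were all members and up to 4 genes of smallest p per list, plus Per1, Klf9, Hsd11b1, Hsd11b2, Fkbp4, Mtf1 and Mt3, and the 5 genes most like Fkbp5. Genes of the lists and arrays named beyond this were chosen after their values were seen, among them Slc30a1, Hspa8, Hsp90aa1, Ddit3 and the 7 genes low on TAC C and sham A. Symbols come from GEO's platform annotation. Alternatives covered the floor, pseudocount, normalization, variance model, array weights, title letters as a block, muscle and fat scores as covariates, and arrays left out. For the differences of single genes, the mean of the gene's measured probe sets was a further alternative to the brightest.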

Additional observations from a re-analysis of the deposited data

How the results depend on the processing

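The number of member probe sets called at an adjusted p under 0.05 was 0 in the analysis as reported and 0 under each alternative of floor, pseudocount, normalization, variance model, weights, block, covariate and arrays left out. It was 2 at an unadjusted p under 0.05. Of 179 recomputed differences of single genes, 160 kept their direction and 19 reversed, and none was called. Nr3c1, Nr3c2, Tsc22d3, Pdk4 and Mt2 kept their direction in every alternative, over 0.05 to 0.37, 0.29 to 0.69, 0.16 to 0.41, -0.98 to -0.03 and 0.08 to 1.17. The 0.05 of Nr3c1 was that of the mean of its measured probe sets (limma adjusted p = 0.897), whose _s_at set was at -0.18. With its brightest set alone the smallest value was 0.17, without sham B. Fkbp5 (0.00 as reported, just below 0) was 0.15 with the fat score, and with 1 array left out ran from -0.27 without TAC B to 0.22 without TAC C. Sgk1 was -0.01 after quantile normalization, -0.04 after median centring, -0.08 with array weights, -0.20 without sham C and TAC B, and with 1 array left out ran from -0.15 (without TAC B) to 0.15. Ddit4 was -0.17 with the muscle score, -0.48 without sham C and TAC B, and from -0.04 to 0.97 with 1 array left out. Cdkn1a was -0.10 without sham C and TAC B and from -0.07 to 1.22 with 1 array left out, and Mt1 ran from -0.02 to 0.88. The cause of these changes was not tested.

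The letters of the titles were used as a block in an alternative. Same-letter arrays correlated at 0.08, 0.00 and -0.17 in their deviations from the group means, and arrays with different letters at -0.13 to 0.14. No pairing by letter was visible. Deviations that balance out within each group cannot show that the letters do not pair the animals. With the replicate block 0 member probe sets were called. Signal near background limits the dim probe sets.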
